A study of Mus musculus with 4 samples.

Results

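Cd8 T cells of the mouse nasal mucosa were taken from 4 single-cell RNA libraries of CD45+ leukocytes, and 1580 of the 79132 deposited cell barcodes met the definition. A cell was counted if it held at least 500 unique molecular identifiers (UMIs, 1 per captured transcript), at least 200 genes and under 10% mitochondrial UMIs, which 72320 barcodes did. It also had to hold at least 2 UMIs of the T cell receptor chains Cd3e, Cd3d and Cd3g together and at least 2 of the coreceptor chains Cd8a and Cd8b1 together. It had to lack Cd4, Foxp3, the B cell gene Cd79a, the neutrophil receptor Cxcr2 and the plasmacytoid dendritic cell lectin Siglech, with under 3 UMIs of the cycling genes Mki67 and Top2a and under 2 of the C1q chains. The cells were thus chosen by measured UMIs of these genes, whose levels are a description and were not tested.

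The 4 libraries were labelled Vehicle, Vehicle-OVA, Ribavirin and Ribavirin-OVA, all from C57BL/6 mice of 8 weeks. Ovalbumin (OVA) was the allergen of an allergic rhinitis model, given to sensitise the mice and then into the nose; ribavirin is a nucleoside analogue with antiviral activity, and vehicle is the solution without it. The series is titled for a ribavirin spray against resident nasal viruses; dose, schedule and the number of mice per library were not given in the sources used here. Each group was 1 library, so no difference between groups could be tested against the spread between animals. Group, library and any handling that went with a library cannot be told apart. Intervals in parentheses are exact 95% intervals that cover counting error only, and "overlap" below refers to them.

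Cd8 T cells recognise peptides on class I molecules and answer with granules of perforin and granzymes, with the cytokines interferon gamma and tumour necrosis factor, and with chemokines such as Ccl3, Ccl4, Ccl5 and Xcl1. Some circulate between blood and lymph nodes, guided by Ccr7 and S1pr1 under the transcription factor Klf2. Others stay in barrier tissues, carry Itgae, Itga1, Cxcr6 and Cd69, and lack Klf2 and S1pr1. Repeated or strong antigen signals raise inhibitory receptors such as Pdcd1, Lag3 and Havcr2 together with the transcription factor Tox. Barrier tissues also hold Cd8 cells that make Il17a, and innate-like T cells with Zbtb16 and with Cd8a but no Cd8b1.

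The label was checked against Nkg7, a granule membrane protein of cytotoxic lymphocytes, and Ccl5, a chemokine kept as ready mRNA in memory Cd8 cells, neither of which entered the definition. Each cell was thinned to 1000 UMIs for such shares, so that depth was equal. Nkg7 was then found in 67.2%, 52.2%, 64.8% and 47.96% of Cd8 T cells, against 11.3% to 19.6% of Cd4 T cells and 0.212% to 1.06% of B cells. Ccl5 was found in 71.5%, 54.6%, 57.7% and 36.4% of Cd8 T cells, against 17.7% to 20.6% of Cd4 T cells and 0.637% to 4.46% of B cells. Both markers stood well above the B cell background in every library, and both were at their lowest share in Ribavirin-OVA. Without thinning the shares were 89.2%, 82.9%, 90.8% and 80.7% for Nkg7 and 80.1%, 68.3%, 73.8% and 53.2% for Ccl5, at median depths of 4204.5, 5217, 5063 and 5256 UMIs in Cd8 T cells and 7777 to 16917 in B cells. Near the threshold the label was weaker. Cells with exactly 2 Cd8 UMIs numbered 93, 35, 90 and 50 in the 4 libraries and held Ccl5 at 7866, 1074, 4885 and 295.9 CPM (UMIs of a gene per 1000000 UMIs of the cells); cells with 6 or more held 11305, 5314, 7031 and 3449. The cells just outside, with 1 Cd8 UMI, numbered 174, 50, 161 and 58 and held Ccl5 at 2917, 558.4, 1786 and 334.7 CPM. In Ribavirin-OVA the Ccl5 level of the cells just inside was below the 488.5 CPM of Cd4 T cells; in the other 3 libraries it was above that of Cd4 T cells. Natural killer cells, defined by the absence of Cd3 UMIs, held Nkg7 at 2256, 959, 1872 and 1188 CPM in the 4 libraries. They held Ccl5 at 11920, 2566, 11471 and 2804 CPM, so neither marker sets Cd8 T cells apart from natural killer cells.

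Cd8 T cells made up 628 of 25727 cells in Vehicle, 205 of 17498 in Vehicle-OVA, 478 of 20278 in Ribavirin and 269 of 8817 in Ribavirin-OVA. Their share of all cells was 2.44% (2.26–2.64) in Vehicle, 1.17% (1.02–1.34) in Vehicle-OVA, 2.36% (2.15–2.58) in Ribavirin and 3.05% (2.70–3.43) in Ribavirin-OVA. Vehicle-OVA was the lowest of the 4, and the intervals of Vehicle and Ribavirin overlapped. With OVA the share was lower under vehicle, at a ratio of 0.480 (0.408 to 0.563), and higher under ribavirin, at 1.29 (1.11 to 1.51); the latter, a log2 ratio of 0.37, was -0.01 among cells with under 5% mitochondrial UMIs and -0.06 when a UMI of each Cd8 chain was required. Of Cd4 and Cd8 T cells together, Cd8 T cells made up 22.7% (21.1 to 24.3), 28.6% (25.3 to 32.0), 28.5% (26.3 to 30.7) and 32.0% (28.8 to 35.3) in the same order. By this measure Vehicle was the lowest and the intervals of the other 3 libraries overlapped, so the low share in Vehicle-OVA came with few T cells of either kind: 1604 cells with at least 2 Cd3 UMIs, against 7386 in Vehicle. Cd8 T cells with at least 3 UMIs of Mki67 and Top2a, left out by the definition, numbered 66, 22, 37 and 16, or 9.51%, 9.69%, 7.18% and 5.61% of Cd8 T cells with them counted in, and all 4 intervals overlapped.

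**Figure D1:**
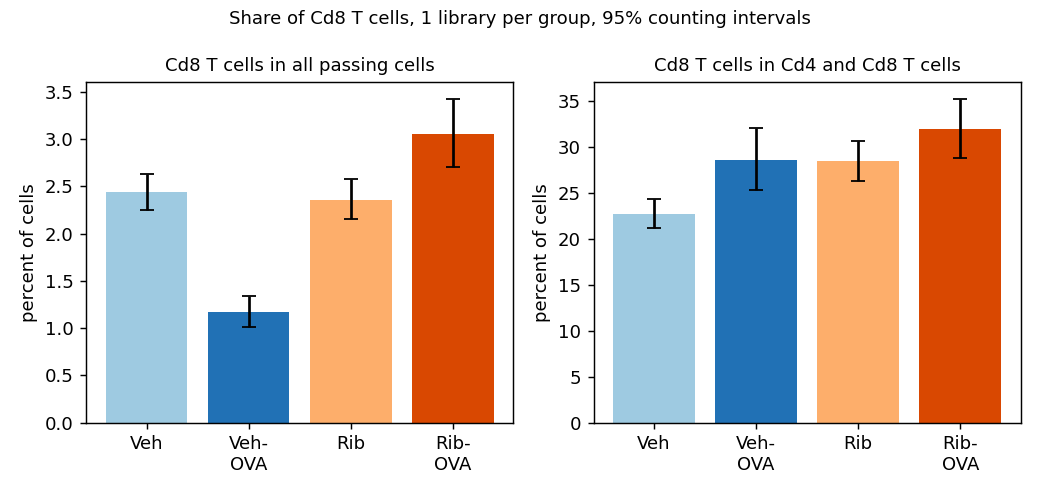
Share of Cd8 T cells in each library, as percent of all cells that passed the cell filters (left) and as percent of Cd4 and Cd8 T cells together (right), with exact 95% intervals. Vehicle-OVA is lowest on the left at 1.17%, and Vehicle is lowest on the right at 22.7%.

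Before single genes are compared, the libraries differed in 2 ways that touch every gene. Ribosomal protein genes took 27.2% and 25.1% of the UMIs of Cd8 T cells in Vehicle and Ribavirin and 14.5% and 13.2% in Vehicle-OVA and Ribavirin-OVA. Of the 8902 genes with at least 50 UMIs in the Cd8 T cells of the 4 libraries, the median gene was higher with OVA by 0.42 on the log2 scale under vehicle and by 0.40 under ribavirin, while the ribavirin pairs had medians of 0.05 and 0.04. The shift grew with transcript length: it was 0.01 and -0.05 in the 10% of genes with the shortest transcripts (median 558 bases) and 0.72 and 0.71 in the 10% with the longest (median 4174 bases). Cd4 T cells had medians of 0.38 and 0.39, B cells of 0.50 and 0.37 and macrophages of 0.17 and 0.29, and the part of this shift in single ratios was not tested. Log2 ratios are of CPM with 1 added. An OVA ratio above 1 whose log2 value is under 0.42 under vehicle, or under 0.40 under ribavirin, lies below the median gene.

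Some barcodes also held UMIs of other leukocytes. A list of 20 genes of B cells, macrophages, neutrophils, dendritic cells and other lineages summed to 3279, 4220, 3376 and 1169 CPM in the Cd8 T cells of the 4 libraries in the same order, against 60466, 61106, 53807 and 29236 CPM over all cells. Siglech, Cd4 and Foxp3, which the definition bars, were at 0 in every library, as was the B cell gene Ms4a1 in Ribavirin-OVA. A set of 26, 12, 24 and 1 Cd8 T cells held many UMIs of class II, Lyz2, S100a8 and S100a9, Ccl24 or olfactory neuron genes, and leaving them out, a choice made after these values were seen, lowered the sum to 1526, 2352, 1668 and 1066 CPM. A list of 9 genes of epithelium, stroma, red cells and neurons was at 9.16 to 54.1 CPM. Among genes that did not mark the mixed cells, ratios that moved by more than 1.5 times without these cells are named below. The Cd8 T cells of the 4 libraries shared 5, 4, 5 and 3 barcodes with any cell of another library, and leaving these out changed no direction and no count of genes by more than 1.5 times.

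With OVA, Cd8 T cells held less Ccl5 and Nkg7 and more of several inhibitory and costimulatory receptors, under vehicle and under ribavirin. Lag3, Tox, Il2ra and Icos were higher in both pairs of libraries, while Ccl3, Gzmb and the immediate early genes set the pairs apart. Under vehicle, 1557 of 8902 genes were at least 2-fold higher with OVA (17.5%) and 388 at least 2-fold lower (4.36%). Under ribavirin, 1221 were higher (13.7%) and 422 lower (4.74%). Set against the median gene, the split turned over, to 472 higher and 967 lower under vehicle and 248 higher and 947 lower under ribavirin. Counts of list genes below are read against these percentages, and no test of a list was made.

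Ccl5, which draws T cells and monocytes, was at 9976 CPM (9863–10089) in Vehicle, 4082 (3968–4198) in Vehicle-OVA, 6101 (6008–6194) in Ribavirin and 2154 (2082–2229) in Ribavirin-OVA. No intervals overlapped, and the order ran from Vehicle down to Ribavirin-OVA. The ratio with OVA was 0.409 (0.397 to 0.422) under vehicle and 0.353 (0.3401 to 0.366) under ribavirin, a log2 ratio of -1.71 and -1.90 relative to the median gene. The lower level was not a feature of Cd8 T cells alone: natural killer cells held Ccl5 at 11920, 2566, 11471 and 2804 CPM and Cd4 T cells at 824.8, 446.5, 907.2 and 488.5 CPM. The share of thinned macrophages with a Ccl5 UMI, 31.7%, 10.4%, 26.9% and 7.99%, was also lower with OVA.

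Among 11 measured genes of cytotoxic granules, 1 was at least 2-fold higher and 1 at least 2-fold lower with OVA under vehicle and none either way under ribavirin, with median log2 ratios of 0.09 and -0.38, or -0.33 and -0.78 relative to the median gene. Nkg7 was at 1579 CPM in Vehicle, 1134 in Vehicle-OVA, 1402 in Ribavirin and 889 in Ribavirin-OVA, with OVA ratios of 0.718 (0.675 to 0.762) and 0.634 (0.596 to 0.675). Gzma, a granzyme with tryptase activity, was at 1329 CPM in Vehicle, 812 in Vehicle-OVA, 739 in Ribavirin and 408 in Ribavirin-OVA. Vehicle was highest and Ribavirin-OVA lowest for both genes, and the Gzma intervals of Vehicle-OVA and Ribavirin overlapped. The OVA ratios of Gzma were 0.611 (0.569 to 0.655) and 0.553 (0.505 to 0.605). In Ribavirin-OVA 3 cells held 381 of the 633 Gzma UMIs, and without the 3 cells with the most Gzma in each library the ratios were 0.531 and 0.319. Gzmb, which activates caspases in target cells, was at 300.1 CPM in Vehicle, 537 in Vehicle-OVA, 241 in Ribavirin and 181 in Ribavirin-OVA. It was highest in Vehicle-OVA, so that its OVA ratio was 1.79 (1.61 to 1.98) under vehicle and 0.751 (0.6503 to 0.865) under ribavirin. In Vehicle-OVA 4 cells held 50% of the 645 Gzmb UMIs, and in Ribavirin 1 cell held 174 of 650. Without the cell that held the most Gzmb in each library, a choice made after values were seen, the ratios were 1.39 (1.24 to 1.56) and 0.871 (0.742 to 1.02), and the interval under ribavirin includes 1. Prf1, the pore-forming protein perforin, was at 20.3 CPM in Vehicle, 73.3 in Vehicle-OVA, 21.9 in Ribavirin and 20.6 in Ribavirin-OVA; Vehicle-OVA stood above the other 3 libraries, whose intervals overlapped. Fasl, the ligand of the death receptor Fas, had OVA ratios of 1.297 and 1.56, or -0.05 and 0.24 on the log2 scale relative to the median gene, and Gzmk, a granzyme of memory cells, of 0.981 and 1.002.

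**Figure D2:**
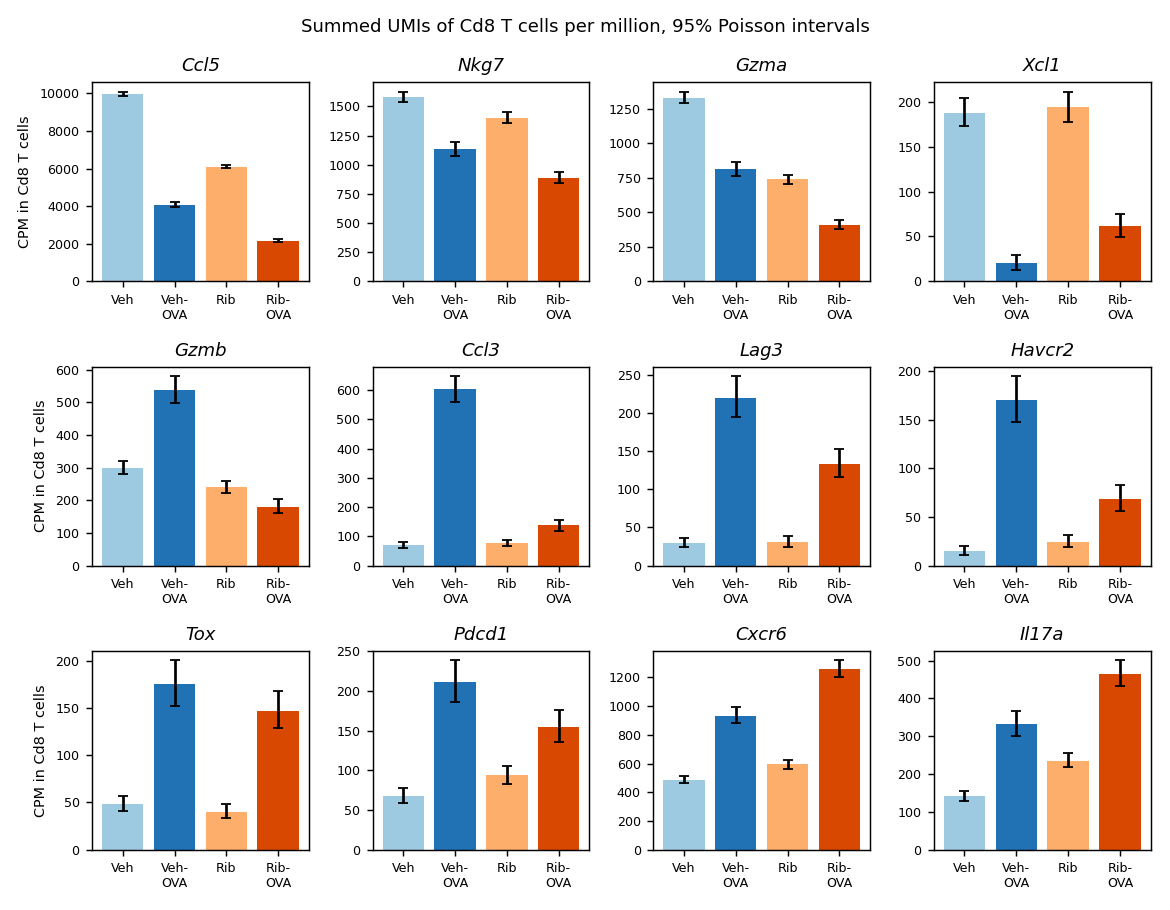
CPM of 12 genes in the summed UMIs of the Cd8 T cells of each library, with exact Poisson 95% intervals. Ccl5, Nkg7 and Gzma are highest in Vehicle and lowest in Ribavirin-OVA, Gzmb, Ccl3, Lag3 and Havcr2 are highest in Vehicle-OVA, and Cxcr6 and Il17a are highest in Ribavirin-OVA.

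Of 8 inhibitory receptors, 4 were at least 2-fold higher and none lower with OVA under vehicle, and 4 were higher and 1 lower under ribavirin; median log2 ratios were 1.27 and 1.01, against 0.42 and 0.40 for all genes. Lag3, a receptor for class II and fibrinogen-like ligands, was at 29.6 CPM (23.8–36.4) in Vehicle, 221 (195–249) in Vehicle-OVA, 31.1 (24.8–38.5) in Ribavirin and 134 (116–153) in Ribavirin-OVA. Vehicle and Ribavirin overlapped at a low level, and both libraries with OVA stood far above them. The OVA ratio of Lag3 was 7.45 (5.84 to 9.59) under vehicle and 4.29 (3.32 to 5.603) under ribavirin. Havcr2, the receptor Tim-3, was at 14.6 CPM in Vehicle, 169.9 in Vehicle-OVA, 24.4 in Ribavirin and 68.4 in Ribavirin-OVA, with ratios of 11.6 (8.34 to 16.5) and 2.799 (2.04 to 3.87). Pdcd1, the receptor PD-1, was at 68.2 CPM in Vehicle, 211 in Vehicle-OVA, 93.7 in Ribavirin and 155 in Ribavirin-OVA, with ratios of 3.09 (2.56 to 3.73) and 1.65 (1.38 to 1.98); relative to the median gene its log2 ratio was 1.19 under vehicle and 0.32 under ribavirin. All 3 were highest in Vehicle-OVA. Cd4 T cells had OVA ratios of 7.55 and 7.63 for Lag3 and 3.06 and 3.49 for Pdcd1, so these were not particular to Cd8 T cells. Ctla4, which competes with Cd28 for its ligands, was highest in Ribavirin-OVA instead, at 293 CPM in Vehicle, 557 in Vehicle-OVA, 345 in Ribavirin and 804 in Ribavirin-OVA. Entpd1, the ectonucleotidase CD39, had OVA ratios of 3.71 and 2.89, and Cd160, a receptor of Tnfrsf14, went the other way at 0.744 and 0.482. After thinning, Lag3 was found in 2.87%, 10.7%, 2.09% and 4.46% of Cd8 T cells and Havcr2 in 0.957%, 8.29%, 1.46% and 4.46%.

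Tox, a transcription factor needed for the persistence of chronically stimulated Cd8 cells, was at 48.2 CPM (40.7–56.8) in Vehicle, 175 (152–200.2) in Vehicle-OVA, 40.4 (33.1–48.7) in Ribavirin and 147 (129–168) in Ribavirin-OVA. The libraries without OVA overlapped, as did those with OVA, and the 2 pairs were far apart. Its OVA ratios were 3.62 (2.92 to 4.51) and 3.65 (2.89 to 4.62), and genes of similar transcript length had median log2 ratios of 0.61 and 0.54 against 1.84 and 1.84 for Tox. Cd4 T cells had Tox ratios of 2.80 and 3.72. Of 14 measured Cd8 T cell transcription factors, 4 were at least 2-fold higher and 1 lower with OVA under each treatment. Prdm1 (Blimp-1), a driver of effector and resident programmes, was at 25.3 CPM in Vehicle, 99.9 in Vehicle-OVA, 40.7 in Ribavirin and 69.7 in Ribavirin-OVA. Eomes, which works in memory and exhausted cells, was at 48.2 CPM in Vehicle, 91.6 in Vehicle-OVA, 41.5 in Ribavirin and 96.8 in Ribavirin-OVA; the 2 libraries with OVA overlapped above the 2 without. Tbx21, the type 1 regulator, had ratios of 1.21 and 1.73, the first of which is -0.15 on the log2 scale relative to the median gene, and Zeb2, of terminal effectors, 2.596 and 1.66. Id3, of memory precursors, was at 0.423 under vehicle, but 0.927 without the mixed cells, and at 0.317 under ribavirin.

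Several costimulatory and cytokine receptors were higher too: of 14 measured, 5 under vehicle and 7 under ribavirin were at least 2-fold higher with OVA and none lower, with medians of 0.73 and 1.03. Relative to the median gene, 3 were at least 2-fold higher and none lower under each treatment, with medians of 0.31 and 0.63. Tnfrsf9 (4-1BB), a receptor that appears on recently stimulated Cd8 T cells, was at 18.6 CPM in Vehicle, 196 in Vehicle-OVA, 24.1 in Ribavirin and 67.1 in Ribavirin-OVA, with ratios of 10.5 (7.82 to 14.3) and 2.79 (2.03 to 3.86). Il2ra, the high-affinity chain of the interleukin-2 receptor, was at 24.9 CPM in Vehicle, 94.1 in Vehicle-OVA, 36.7 in Ribavirin and 120 in Ribavirin-OVA, and Il2rb, the signalling chain shared with interleukin-15, at 158 CPM in Vehicle, 442 in Vehicle-OVA, 171 in Ribavirin and 389 in Ribavirin-OVA. Icos was at 296 CPM in Vehicle, 736 in Vehicle-OVA, 349.6 in Ribavirin and 844 in Ribavirin-OVA. Tnfrsf9 was highest in Vehicle-OVA, while the 2 libraries with OVA overlapped for Il2ra; in all 4 genes both stood above both libraries without OVA. Cd4 T cells had larger ratios for Il2ra, 7.91 and 6.17, against 3.77 and 3.27 in Cd8 T cells.

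**Figure D3:**
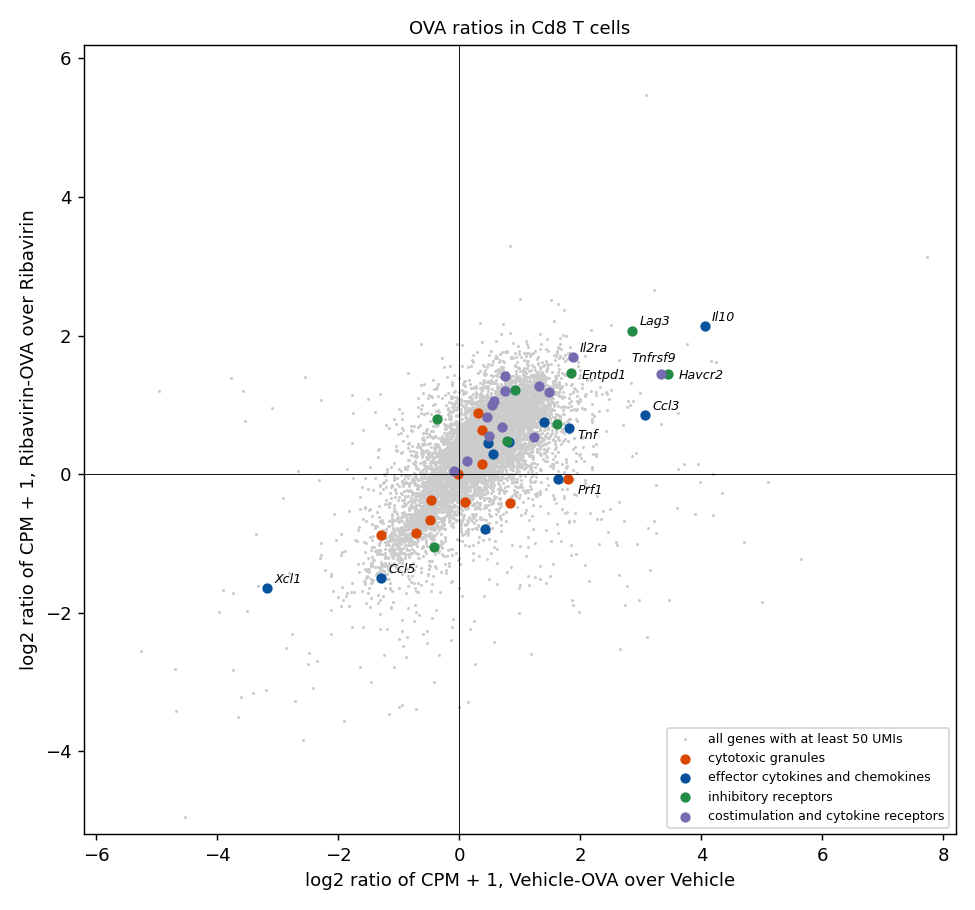
Log2 ratio with OVA over without in Cd8 T cells under vehicle (horizontal axis) and under ribavirin (vertical axis), on CPM with 1 added. Grey points are all 8902 genes with at least 50 UMIs, which are centred at 0.42 and 0.40, and coloured points are the genes of 4 lists; Lag3, Il10 and Il2ra lie to the upper right, Ccl5 and Xcl1 to the lower left, and Havcr2, Tnfrsf9 and Ccl3 have larger ratios under vehicle than under ribavirin.

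Effector cytokines and chemokines separated the 2 pairs. Of 11 measured, 5 were at least 2-fold higher and 2 lower with OVA under vehicle, and 1 higher and 2 lower under ribavirin. Ccl3, which draws T cells and macrophages and is released on antigen contact, was at 70.5 CPM (61.4–80.7) in Vehicle, 602 (559–648) in Vehicle-OVA, 75.9 (65.9–87.04) in Ribavirin and 138 (119.6–157) in Ribavirin-OVA. Vehicle-OVA stood far above the other 3, and the OVA ratio was 8.54 (7.32 to 9.997) under vehicle and 1.81 (1.49 to 2.21) under ribavirin. Ccl3 UMIs lay in 62 of 628, 139 of 205, 82 of 478 and 46 of 269 Cd8 T cells in the same order. Ccl4, its close relative, was at 438 CPM in Vehicle, 1367 in Vehicle-OVA, 652 in Ribavirin and 623 in Ribavirin-OVA, with ratios of 3.12 (2.897 to 3.35) and 0.956 (0.883 to 1.03). Genes of other leukocytes also summed highest in Vehicle-OVA, at 4220 CPM, or 2352 CPM without the mixed cells. Their part in the Ccl3 and Ccl4 levels was not tested. Ifng was at 231 CPM in Vehicle, 322 in Vehicle-OVA, 279.9 in Ribavirin and 381 in Ribavirin-OVA, an OVA ratio of 1.396 (1.23 to 1.58) and 1.36 (1.22 to 1.52), close to the shift of the median gene. Tnf was at 25.3 CPM in Vehicle, 90.8 in Vehicle-OVA, 58.1 in Ribavirin and 92.9 in Ribavirin-OVA; the intervals of Vehicle-OVA and Ribavirin-OVA overlapped, and both were highest.

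Xcl1, the chemokine by which Cd8 T cells and natural killer cells draw cross-presenting dendritic cells, was at 188 CPM (173–204) in Vehicle, 19.99 (12.8–29.7) in Vehicle-OVA, 194 (178–211) in Ribavirin and 61.3 (49.6–74.95) in Ribavirin-OVA. Both libraries with OVA were below both without, at ratios of 0.106 (0.0676 to 0.1598) and 0.316 (0.251 to 0.394). In Ribavirin, 1 cell held 298 of the 524 Xcl1 UMIs, and in Ribavirin-OVA 1 cell held 42 of 95, so these levels rest on few cells. Natural killer cells had ratios of 0.0514 and 0.276. Il10, an anti-inflammatory cytokine, was at 1.66 CPM in Vehicle, 43.3 in Vehicle-OVA, 3.33 in Ribavirin and 18.1 in Ribavirin-OVA, with ratios of 26.03 (10.5 to 83.5) and 5.42 (2.49 to 13.1); its UMIs came from 5, 13, 5 and 11 cells. In Cd4 T cells the Il10 ratios were 59.3 and 11.9. Both genes kept their direction under each treatment, but from cells too few for their levels to be firm.

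Immediate early genes, which T cell receptor signals and tissue digestion both induce, differed between the treatments in the same way. Of 16, 8 were at least 2-fold higher with OVA under vehicle and 1 under ribavirin, none was lower, and the medians were 0.97 and 0.25. Egr1 was at 168 CPM in Vehicle, 689 in Vehicle-OVA, 222 in Ribavirin and 319.5 in Ribavirin-OVA, Nr4a1 at 147 CPM in Vehicle, 333 in Vehicle-OVA, 208 in Ribavirin and 259 in Ribavirin-OVA, and Zfp36, which destabilises cytokine mRNAs, at 197 CPM in Vehicle, 667 in Vehicle-OVA, 282 in Ribavirin and 329 in Ribavirin-OVA. Vehicle-OVA was the highest for each, and Ribavirin-OVA was second. Under ribavirin, however, the OVA ratios of Nr4a1 and Zfp36 lay below the median gene. Relative to the median gene, the medians of the list were 0.55 under vehicle and -0.15 under ribavirin. Nr4a1 and Egr1 report receptor signals in T cells, and Nr4a2 and Nr4a3 had ratios of 2.72 and 3.32 under vehicle and 2.13 and 1.83 under ribavirin. The part of digestion in these values was not tested. Of 14 genes of activation and metabolism, 5 were higher and none lower under vehicle and 2 and none under ribavirin. Cd44, the hyaluronan receptor of antigen-experienced cells, was at 139 CPM in Vehicle, 513 in Vehicle-OVA, 197 in Ribavirin and 448 in Ribavirin-OVA. Hif1a, the oxygen-sensing regulator of glycolysis, had ratios of 3.33 and 2.17. For none of 14 genes of T cell receptor and coreceptor signalling did either ratio reach 2-fold. Relative to the median gene, 3 were at least 2-fold lower and 0 higher under each treatment, with medians of -0.23 and -0.12. Among the 14, 5 genes, Cd3d, Cd3e, Cd3g, Cd8a and Cd8b1, chose the cells.

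Of 7 measured type 17 genes, 3 were at least 2-fold higher and 1 lower with OVA under vehicle and 2 higher and 2 lower under ribavirin, and a minority of cells set the cytokine levels. Il17a, which draws neutrophils through epithelial chemokines, was at 142 CPM (129–157) in Vehicle, 333 (301–367) in Vehicle-OVA, 236 (218–254) in Ribavirin and 465 (432–501) in Ribavirin-OVA. No intervals overlapped, and the libraries with OVA were above those without, at ratios of 2.34 (2.04 to 2.69) and 1.98 (1.77 to 2.202); with cells of 1 Cd8 UMI counted in, the log2 ratio under ribavirin was 0.19 in place of 0.98. The UMIs lay in 60, 21, 72 and 62 Cd8 T cells, and 7, 4, 10 and 7 of them held 50%. Cd4 T cells went the other way, at 1352, 647.6, 1353 and 375.1 CPM. Rora, a transcription factor of Il17a-making cells, was at 219.6 CPM in Vehicle, 464 in Vehicle-OVA, 324 in Ribavirin and 695 in Ribavirin-OVA. Relative to the median gene no type 17 gene was 2-fold higher under either treatment, and 2 of 7 were lower under each. One of these was Il22, which acts on epithelium: it was at 24.6 CPM in Vehicle, 0 in Vehicle-OVA, 37.4 in Ribavirin and 2.58 in Ribavirin-OVA, from 9, 0, 6 and 3 cells, at least 9.85-fold lower with OVA under vehicle if the 0 of Vehicle-OVA is set to 3 UMIs, and at a ratio of 0.06903 (0.0185 to 0.182) under ribavirin. Il17a and Il22 thus differed in opposite directions in the same libraries.

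Type 2 cytokines, the signature of allergic helper cells, were close to absent from Cd8 T cells. Il4 had no UMI in any library, a count that allows up to 3 UMIs per library, or 0.998 to 2.499 CPM. Il5 had 1 UMI, in Vehicle, and Il13 was at 1.29 CPM in Ribavirin-OVA and 0 elsewhere. The Cd4 T cells of the same libraries held Il13 at 58.4 CPM in Vehicle-OVA and 75.4 CPM in Ribavirin-OVA and Il4 at 28.7 and 23.7 CPM. Gata3, the regulator of type 2 genes that Cd8 T cells also use, was nevertheless at 58.2 CPM in Vehicle, 143 in Vehicle-OVA, 65.2 in Ribavirin and 182 in Ribavirin-OVA, with OVA ratios of 2.46 (1.98 to 3.05) and 2.79 (2.31 to 3.39), against 4.54 and 6.21 in Cd4 T cells. Areg, an epidermal growth factor family ligand of tissue repair, was at 25.3 CPM in Vehicle, 2.499 in Vehicle-OVA, 9.26 in Ribavirin and 7.099 in Ribavirin-OVA. Vehicle was the highest and the other 3 were low, but in Vehicle 3 cells held 51 of the 76 Areg UMIs, so its level rests on few cells.

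Of 7 chemokine receptors, 2 were at least 2-fold higher under each treatment and none lower. Cxcr4, the receptor of Cxcl12, was at 119 CPM in Vehicle, 347 in Vehicle-OVA, 132 in Ribavirin and 294 in Ribavirin-OVA, both libraries with OVA above both without. Ccr2, the receptor of Ccl2, was at 290.1 CPM in Vehicle, 396 in Vehicle-OVA, 258 in Ribavirin and 618 in Ribavirin-OVA and Cxcr3, the receptor of interferon-induced chemokines, at 129 CPM in Vehicle, 68.3 in Vehicle-OVA, 112 in Ribavirin and 106 in Ribavirin-OVA; the OVA ratio of Cxcr3 was 0.529 under vehicle and 0.9496 under ribavirin. Of 9 natural killer receptors, 2 were higher and none lower under vehicle, and none higher and 1 lower under ribavirin. The inhibitory receptor Klrc1 (NKG2A) was at 111 CPM in Vehicle, 325 in Vehicle-OVA, 121 in Ribavirin and 172 in Ribavirin-OVA, highest in Vehicle-OVA. Fcgr3 was higher at 2.45 under vehicle and lower at 0.3201 under ribavirin, but 1.51 and 0.672 without the mixed cells.

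Interferon-stimulated genes and class I presentation held a few large single differences. Relative to the median gene, the OVA medians of the interferon-stimulated list were -0.04 under vehicle and -0.53 under ribavirin. Those of the class I list were -0.04 and 0.12. Of 14 interferon-stimulated genes, 2 were higher and 1 lower with OVA under vehicle and none either way under ribavirin. The lower one was Ifi27l2a, at 879.7 CPM in Vehicle, 423 in Vehicle-OVA, 829 in Ribavirin and 449 in Ribavirin-OVA. The 2 that were higher, Rsad2 (viperin) and Oasl2, had ratios of 4.38 and 3.27, which were 1.38 and 2.02 without the mixed cells, and 0.914 and 1.26 under ribavirin. Of 8 class I genes, 2 were at least 2-fold lower under vehicle and 1 under ribavirin. Psmb8, a catalytic subunit of the immunoproteasome that trims peptides for class I, was at 764 CPM in Vehicle, 296 in Vehicle-OVA, 682 in Ribavirin and 306 in Ribavirin-OVA, and Psmb9, another such subunit, at 289 CPM in Vehicle, 136 in Vehicle-OVA, 276 in Ribavirin and 149.7 in Ribavirin-OVA; the libraries of the same OVA status overlapped for Psmb9. The Psmb8 ratios were 0.388 (0.346 to 0.434) and 0.448 (0.404 to 0.496), and Cd4 T cells had 0.417 and 0.441. B2m, the light chain of class I, was at 3194 CPM in Vehicle, 4374 in Vehicle-OVA, 3292 in Ribavirin and 4684 in Ribavirin-OVA, with OVA ratios of 1.37 and 1.42, or 0.03 and 0.11 on the log2 scale relative to the median gene, and the transporter Tap1 was at 1.51 and 1.54.

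By size alone, the 10 genes with the largest difference in both OVA pairs, among genes at least as high in Cd8 T cells as over all cells, were Gm26853, Lag3, Tox, Gm42715, Zfp395, Rbm12b1, Itgav, Dgkq, Il2ra and Gm43848 on the higher side. Of these only Lag3, Tox, Il2ra and Itgav passed 100 CPM in any library. Itgav, the integrin chain that activates latent transforming growth factor beta, was at 38.6 CPM in Vehicle, 132 in Vehicle-OVA, 42.6 in Ribavirin and 142 in Ribavirin-OVA. On the lower side were Il22, 2310009B15Rik, Rpl36-ps3, AY036118, Polr2j, Acot13, Hspb11, Xcl1, Gm26699 and Slc24a5. AY036118 was the most abundant, at 1005 CPM in Vehicle, 274 in Vehicle-OVA, 1062 in Ribavirin and 312 in Ribavirin-OVA, and Polr2j, a subunit of RNA polymerase II, was at 123 CPM in Vehicle, 33.3 in Vehicle-OVA, 99.98 in Ribavirin and 29.7 in Ribavirin-OVA. Rpl36-ps3 is a pseudogene copy of a ribosomal protein gene, so its reads are uncertain.

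Residency and circulation genes were compared cell by cell after thinning to 1000 UMIs, since deeper cells show more of both. Ribosomal protein genes took 27.2% and 25.1% of UMIs in Vehicle and Ribavirin and 14.5% and 13.2% in Vehicle-OVA and Ribavirin-OVA. Thinned cells with OVA thus held more UMIs of other genes, and the part of this in the shares below was not tested. The residency genes scored were Itgae, Itga1, Cxcr6 and Zfp683, and there were 4 circulation genes, among them Ccr7, Lef1 and S1pr1. Cells with a residency UMI and no circulation UMI made up 39.4% (35.6–43.3) of Cd8 T cells in Vehicle, 49.8% (42.7–56.8) in Vehicle-OVA, 45.6% (41.1–50.2) in Ribavirin and 57.3% (51.1–63.2) in Ribavirin-OVA. Cells with a circulation UMI only made up 15.6%, 13.2%, 9.41% and 13.0%, cells with both 3.19%, 11.2%, 4.39% and 7.81%, and cells with neither 41.8%, 25.9%, 40.6% and 21.9%. The residency range was the largest in both libraries with OVA, and in Vehicle and Ribavirin it overlapped with the cells that had neither. With OVA the residency-only share had ratios of 1.26 (0.993 to 1.60) under vehicle and 1.26 (1.02 to 1.55) under ribavirin, and these reversed without thinning, to log2 ratios of -0.16 and -0.22. Any residency UMI was found in 42.6%, 60.98%, 50% and 65.1% of Cd8 T cells and 0.425% to 1.06% of B cells, and any circulation UMI in 18.8%, 24.4%, 13.8% and 20.8% of Cd8 T cells and 2.97% to 4.82% of macrophages; without thinning the Cd8 T cell shares were 71.3%, 82.4%, 81.6% and 89.2% and 44.3%, 55.6%, 43.9% and 54.3%.

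**Figure D4:**
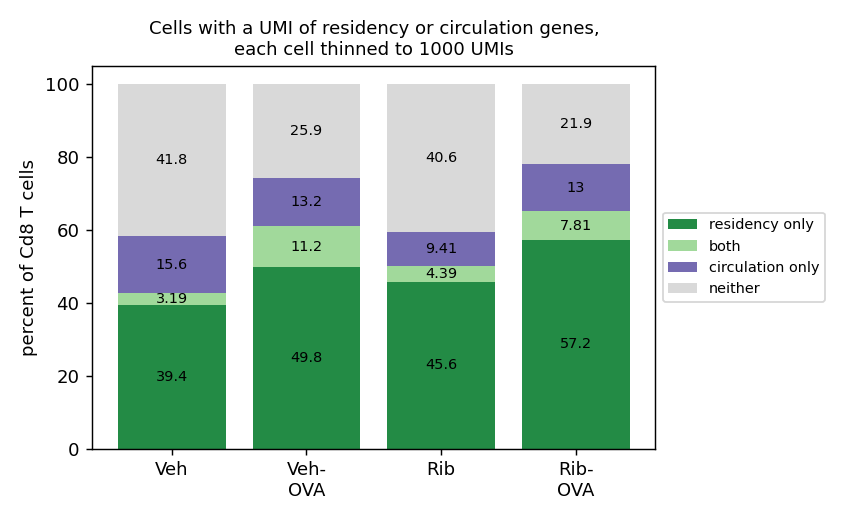
Percent of Cd8 T cells in each library with a UMI of residency genes only, of both kinds, of circulation genes only, or of neither, after each cell was thinned to 1000 UMIs. The residency-only part runs from 39.4% in Vehicle to 57.3% in Ribavirin-OVA, and the part with neither from 21.9% to 41.8%.

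Of 7 measured residency genes none was at least 2-fold higher with OVA under vehicle and 1 under ribavirin, with median log2 ratios of 0.78 and 0.47. Cxcr6, the receptor of Cxcl16 that holds Cd8 T cells near epithelium, was at 487 CPM (462–513) in Vehicle, 934 (879.8–989.9) in Vehicle-OVA, 594 (565–624) in Ribavirin and 1260 (1205–1318) in Ribavirin-OVA. No intervals overlapped, and its OVA ratios were 1.92 (1.77 to 2.07) and 2.12 (1.99 to 2.27). Cd69, which blocks S1pr1, was at 303 CPM in Vehicle, 542 in Vehicle-OVA, 399.9 in Ribavirin and 553 in Ribavirin-OVA, and Itgae, the alpha chain of the integrin that binds E-cadherin, at 150.4 CPM in Vehicle, 181 in Vehicle-OVA, 201 in Ribavirin and 215 in Ribavirin-OVA. The Itgae ratios with OVA, 1.202 and 1.07, were below the median gene. Rgs1, a brake on chemokine receptors in resident cells, was at 799.5 CPM in Vehicle, 1375 in Vehicle-OVA, 1226 in Ribavirin and 1501 in Ribavirin-OVA; relative to the median gene its log2 ratios were 0.36 and -0.11. Of the circulation genes, Klf2 was at 308 CPM in Vehicle, 396 in Vehicle-OVA, 220 in Ribavirin and 189 in Ribavirin-OVA; Vehicle-OVA was the highest and Ribavirin-OVA the lowest, but relative to the median gene its OVA log2 ratio was -0.06 under vehicle and -0.62 under ribavirin. Satb1, a chromatin organiser of early T cells, was at 171 CPM in Vehicle, 564 in Vehicle-OVA, 248 in Ribavirin and 563 in Ribavirin-OVA, its 2 libraries with OVA overlapping above both others. Lef1, a factor of naive and memory cells, had OVA ratios of 1.33 and 1.75, the first of which is -0.01 on the log2 scale relative to the median gene.

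Among genes that the scoring did not use, Icos was at 388, 938, 445 and 968 CPM in residency-only cells and at 202, 312, 208 and 547 CPM in circulation-only cells. Ifng was at 308, 457, 379 and 483 CPM against 128, 34.7, 123 and 215 CPM, and Ctla4 at 398, 748, 469 and 931 CPM against 187, 139, 162 and 365 CPM. Each of these 3 genes was higher in the residency range in all 4 libraries, without overlap. Lag3 was at 44.3, 328, 37.04 and 191 CPM against 14.9, 6.94, 25.5 and 53.7 CPM, far apart in Vehicle-OVA and overlapping in Ribavirin. Eomes went the other way, at 33.03, 67.98, 12.3 and 68.3 CPM against 63.9, 111, 97.9 and 150.2 CPM, with overlap in Vehicle and Vehicle-OVA. These ranges are cuts through a continuum of sparse counts, not cell types, and cells with neither UMI may belong to either.

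Within the Cd8 T cells, many genes differed with Cd8b1. The conventional coreceptor pairs Cd8a with Cd8b1, and a homodimer of Cd8a alone is carried by innate-like cells of epithelia. A cell was divided by whether it held a Cd8b1 UMI, a division chosen after values were seen; cells without one had entered by Cd8a alone, so the share of such cells is a description. Cells without one numbered 142, 77, 120 and 127, or 22.6% (19.4 to 26.1), 37.6% (30.9 to 44.6), 25.1% (21.3 to 29.2) and 47.2% (41.1 to 53.4) of Cd8 T cells in the same order of libraries. The 2 libraries without OVA overlapped and both with OVA were above them, at ratios of 1.66 (1.24 to 2.21) and 1.88 (1.45 to 2.43). Median depth was 3858, 4927, 4658.5 and 5152 UMIs without Cd8b1 and 4330, 5472, 5297.5 and 5418.5 with it. The median number of Cd8 UMIs was 3, 3, 3 and 4 without Cd8b1 and 6.5, 8, 6.5 and 8 with it, so cells without lay nearer the threshold of 2, where Ccl5 was lower, and the part of this in the differences below was not tested. A Cd8b1 mRNA can be missed, and another 77, 32, 72 and 52 cells held exactly 1 Cd8b1 UMI. Cd8b1 was at 805, 389, 621 and 288 CPM in residency-only cells and at 750, 618, 736 and 510 CPM in circulation-only cells. It was thus lower with OVA in both ranges, and the part of a lower Cd8b1 level in the shares without it was not tested. Among cells with at least 3 Cd8a UMIs the share without Cd8b1 was 26.4%, 35.2%, 27.4% and 46.6%.

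Cells without Cd8b1 held more of the innate-like and type 17 genes. Zbtb16 (PLZF), the factor of innate-like T cells, was at 81.7, 138, 92.2 and 182 CPM in them and at 11.8, 34, 32.7 and 83.4 CPM in cells with Cd8b1. Il1r1, the receptor for interleukin-1, at 109, 98.4, 136 and 125 CPM against 14.7, 15.1, 45.1 and 49.8 CPM, and Blk, a Src family kinase of B cells and of type 17 gamma delta T cells, at 46.5, 61.5, 56.6 and 62.6 CPM against 5.04, 2.52, 19.2 and 31.3 CPM. Each was higher without Cd8b1 in all 4 libraries. Cxcr6 was at 775, 1205, 823 and 1512 CPM against 412, 794, 526 and 1060 CPM, also higher in all 4. Il17a was at 266, 595, 548 and 494 CPM against 110, 199, 143 and 443 CPM; it was higher without Cd8b1 in all 4 libraries, but the intervals overlapped in Ribavirin-OVA. Gamma delta receptor constant genes were not analysed here, so gamma delta and alpha beta cells were not told apart.

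Cells with Cd8b1 held more of several cytotoxic and circulation genes. Ccl5 was at 11308, 5337, 7038 and 3476 CPM in them against 4894, 1629, 2943 and 492 CPM without Cd8b1, Gzma at 1433, 994, 886 and 702 CPM against 932, 458, 246 and 39.3 CPM, and Gzmk at 157, 203, 85.97 and 120.5 CPM against 67.3, 4.92, 22.6 and 10.2 CPM. S1pr1, the exit receptor, was at 118, 142, 68.7 and 69.5 CPM against 16.02, 29.5, 12.9 and 27.7 CPM, Ccr7 at 57.95, 67.99, 28.8 and 37.1 CPM against 0, 4.92, 4.85 and 7.28 CPM, and Cd28 at 205, 418, 178 and 502 CPM against 133, 135, 102 and 207 CPM. All 6 were higher with Cd8b1 in every library. Lef1, another circulation gene, was at 104.6, 141, 79.2 and 135.6 CPM with Cd8b1 against 59.3, 98.4, 56.6 and 122.4 CPM without. Its intervals overlapped in Vehicle-OVA, Ribavirin and Ribavirin-OVA. The lowest Gzma and Ccl5 levels of all were those of cells without Cd8b1 in Ribavirin-OVA.

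The OVA differences also separated by Cd8b1. In cells with Cd8b1, Lag3 was at 26.9, 288, 31.2 and 226 CPM, OVA ratios of 10.7 (8.099 to 14.4) and 7.24 (5.44 to 9.74); in cells without, it was at 40.05, 88.6, 30.7 and 17.5 CPM, ratios of 2.21 (1.29 to 3.84) and 0.569 (0.252 to 1.24). Tox had ratios of 5.34 (4.16 to 6.89) and 4.98 (3.77 to 6.64) with Cd8b1 and 1.09 (0.672 to 1.76) and 1.94 (1.27 to 3.02) without, and Havcr2 15.4 (10.5 to 23.2) and 5.78 (3.92 to 8.67) and 5.12 (2.63 to 10.7) and 0.483 (0.2396 to 0.935). For Lag3 and Tox the intervals of the ratio with and without Cd8b1 did not overlap under either treatment. Pdcd1 had ratios of 3.21 and 2.66 with Cd8b1 and 2.798 and 0.583 without. Il17a had ratios of 1.81 (1.475 to 2.21) and 3.10 (2.66 to 3.62) with Cd8b1. Without Cd8b1 they were 2.24 (1.83 to 2.74) and 0.901 (0.773 to 1.05), so under ribavirin the higher Il17a was seen only in cells with Cd8b1. Ccl5 kept ratios of 0.472 (0.457 to 0.488) and 0.494 (0.475 to 0.514) in cells with Cd8b1, so its lower level with OVA was present within them, and Gzmb had 1.95 and 0.742. Xcl1 had 0.0496 (0.0198 to 0.103) and 0.0474 (0.0226 to 0.0879) with Cd8b1 and 0.184 (0.104 to 0.305) and 5.11 (2.93 to 9.52) without, opposite directions under ribavirin. The 5.11 was 85 UMIs against 15. Over all Cd8 T cells, 3 cells held 74 of 95 Xcl1 UMIs in Ribavirin-OVA and 1 held 298 of 524 in Ribavirin. The Xcl1 ratios under ribavirin thus rest on few cells. The ratios over all Cd8 T cells mix these 2 kinds of cell, whose shares differed with OVA. Requiring both Cd8 chains left 433, 124, 325 and 136 cells, and the log2 ratio of Ccl5 became -1.03 and -0.88 in place of -1.29 and -1.50, and that of Lag3 3.29 and 2.90 in place of 2.86 and 2.07.

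**Figure D5:**
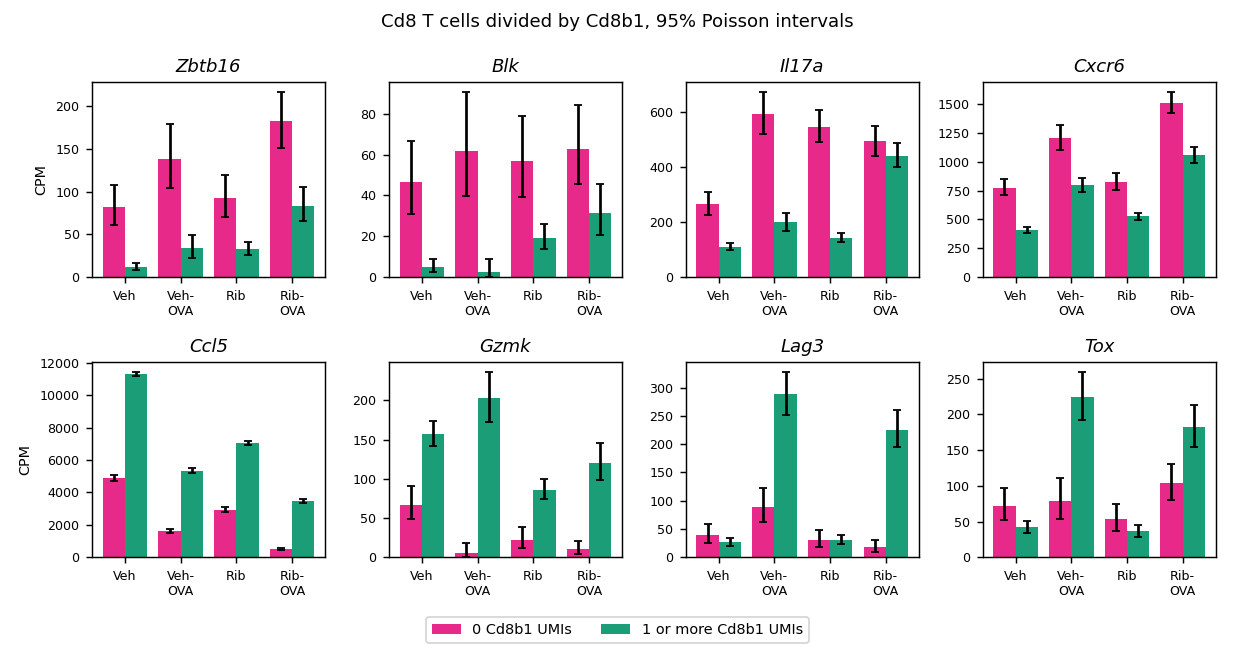
CPM of 8 genes in Cd8 T cells with no Cd8b1 UMI and with at least 1, in each library, with exact Poisson 95% intervals. Zbtb16, Blk, Il17a and Cxcr6 are higher without Cd8b1 and Ccl5 and Gzmk higher with it in all 4 libraries, and Lag3 and Tox are higher with Cd8b1 in both libraries with OVA.

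Ribavirin against vehicle gave far fewer differences than OVA. Without OVA, 120 genes were at least 2-fold higher (1.35%) and 50 at least 2-fold lower (0.562%) in Ribavirin than in Vehicle; with OVA, 227 were higher (2.55%) and 277 lower (3.11%). Each pair uses libraries that the OVA pairs also use. S1pr1, Ccr7, Gzmk and Ccl5 were lower and Il17a, Cxcr6 and Blk higher with ribavirin in both pairs.

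S1pr1 was at 96.5 CPM in Vehicle, 104 in Vehicle-OVA, 55.9 in Ribavirin and 50.99 in Ribavirin-OVA, and the ratio of ribavirin over vehicle was 0.5795 (0.473 to 0.708) without OVA and 0.4897 (0.365 to 0.654) with it. Ccr7, the lymph node homing receptor, was at 45.9 CPM in Vehicle, 46.6 in Vehicle-OVA, 23.3 in Ribavirin and 23.9 in Ribavirin-OVA, ratios of 0.508 (0.371 to 0.689) and 0.512 (0.329 to 0.789). Cx3cr1, the fractalkine receptor of effector cells in blood, was at 65.9 CPM in Vehicle, 108 in Vehicle-OVA, 31.9 in Ribavirin and 50.99 in Ribavirin-OVA, ratios of 0.483 (0.371 to 0.626) and 0.471 (0.351 to 0.628). For S1pr1 and Ccr7 both ribavirin libraries stood below both vehicle libraries; for Cx3cr1 the intervals of Ribavirin-OVA and Vehicle overlapped. Of the 8 circulation genes none was at least 2-fold lower without OVA and 3 with it, with medians of -0.22 and -0.60, and 3 and 2 of them were above 0. Of the 11 cytotoxic granule genes 5 and 4 were above 0, with medians of -0.17 and -0.35, and none and 2 were at least 2-fold lower. Gzmk was at 138 CPM in Vehicle, 136 in Vehicle-OVA, 71.5 in Ribavirin and 71.6 in Ribavirin-OVA, both ribavirin libraries about equal and below both vehicle ones, at 0.516 (0.433 to 0.614) and 0.528 (0.411 to 0.676). Gzma had ratios of 0.556 (0.527 to 0.587) and 0.503 (0.455 to 0.557), and of 0.457 and 0.275 without the 3 cells with the most Gzma in each library. Ccl5 had ratios of 0.612 (0.6 to 0.623) and 0.528 (0.505 to 0.552), and Klrd1 (CD94), partner of the NKG2 receptors, of 0.666 (0.605 to 0.733) and 0.536 (0.465 to 0.618). All 9 natural killer receptors were below 0 on the log2 scale with OVA, with a median of -0.82, and Fcgr3 alone was at least 2-fold lower, at 0.142, or 0.489 without the mixed cells.

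Il17a had ribavirin ratios of 1.65 (1.46 to 1.87) without OVA and 1.397 (1.23 to 1.58) with it, and Rora of 1.48 (1.33 to 1.64) and 1.498 (1.35 to 1.66). Il1r1 was at 34.3 CPM in Vehicle, 43.3 in Vehicle-OVA, 65.9 in Ribavirin and 83.2 in Ribavirin-OVA, at 1.92 (1.501 to 2.48) and 1.92 (1.38 to 2.71), and Blk at 13.6 CPM in Vehicle, 22.5 in Vehicle-OVA, 27.8 in Ribavirin and 45.2 in Ribavirin-OVA, at 2.04 (1.37 to 3.06) and 2.01 (1.27 to 3.26). Of 7 type 17 genes 6 were above 0 in each ribavirin pair, with a median of 0.58 in both, and with OVA 1 was at least 2-fold lower, Ccr6. Il22 was counted as at least 2-fold higher in Ribavirin-OVA, at 2.58 CPM against 0, but with the 0 set to 3 UMIs it was only at least 1.03-fold higher. All 7 residency genes were above 0 in both pairs, with medians of 0.42 and 0.25, and 1 passed 2-fold with OVA, Itga1, the collagen-binding integrin of resident cells, at 30.9 CPM in Vehicle, 19.99 in Vehicle-OVA, 42.2 in Ribavirin and 47.1 in Ribavirin-OVA. The share without Cd8b1 had ratios of 1.11 (0.863 to 1.43) and 1.26 (0.940 to 1.69), intervals that include 1.

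In the presence of OVA, several effector, costimulatory and inhibitory genes were lower with ribavirin, while others were not. The ratio of Ribavirin-OVA over Vehicle-OVA was 0.228 (0.195 to 0.266) for Ccl3, 0.343 (0.2696 to 0.434) for Tnfrsf9, 0.282 (0.182 to 0.427) for Prf1, 0.336 (0.291 to 0.388) for Gzmb, 0.403 (0.315 to 0.512) for Havcr2 and 0.605 (0.502 to 0.729) for Lag3. Of 11 effector genes 4 were at least 2-fold lower and 1 higher, and of 14 activation genes 13 were below 0 with none past 2-fold. Of 14 costimulatory and cytokine receptors 8 were above 0, with a median of 0.05, and 1 was at least 2-fold lower. Tnf, Ifng, Il2ra and Ctla4 were not lower in Ribavirin-OVA than in Vehicle-OVA. Of 16 immediate early genes 3 were at least 2-fold lower, or 1 without the mixed cells; the genes of other leukocytes summed to 4220 CPM in Vehicle-OVA and 1169 in Ribavirin-OVA, and their part in this was not tested. Without OVA, the 16 immediate early genes were all above 0, with a median of 0.40, and 1 was at least 2-fold higher. Tox was at ratios of 0.837 (0.646 to 1.08) and 0.841 (0.694 to 1.02), with intervals that include 1, and Icos at 1.18 (1.08 to 1.297) and 1.15 (1.05 to 1.25). Xcl1 was 1.03 (0.915 to 1.17) without OVA, or 1.51 without the mixed cells and 0.554 without the cell with the most Xcl1 in each library, and 3.07 (1.94 to 5.02) with OVA.

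By size in both ribavirin pairs, the genes on the higher side were Ccdc91, Simc1, Ablim3, Blk and B3galt2, and on the lower side Dapl1, 1500009L16Rik, Esm1, 0610010F05Rik and Ccr7. Dapl1, a gene of early memory Cd8 cells, was at 31.6 CPM in Vehicle, 15.8 in Vehicle-OVA, 11.1 in Ribavirin and 4.52 in Ribavirin-OVA, and Esm1, a secreted proteoglycan, at 18.96 CPM in Vehicle, 16.7 in Vehicle-OVA, 7.41 in Ribavirin and 6.45 in Ribavirin-OVA. Ablim3, an actin-binding protein, was at 13.3 CPM in Vehicle, 24.99 in Vehicle-OVA, 31.1 in Ribavirin and 54.2 in Ribavirin-OVA. These levels are low, from 95, 19, 30 and 7 UMIs of Dapl1 and 57, 20, 20 and 10 of Esm1 in the 4 libraries. In these sums over cells, fewer cells that hold a gene and less mRNA per cell cannot be told apart.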

How the data were processed

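CD45+ leukocytes of the nasal mucosa were sequenced in 4 single-cell libraries, 1 per group, and the authors deposited a matrix of UMI counts for each (27998 genes; 28277, 19143, 21401 and 10311 barcodes for Vehicle, Vehicle-OVA, Ribavirin and Ribavirin-OVA). The submitters' processing notes name Cell Ranger 5.0.0 and build mm10; the annotation was not given in the sources used here. The labels give magnetic sorting and the series' design text flow sorting. UMI counts were summed over the Cd8 T cells of a library (3005558, 1200683, 2700580 and 1549472 UMIs) and given as CPM with exact Poisson 95% intervals. Shares have Clopper-Pearson intervals and ratios exact conditional binomial intervals. With 1 library per group no test was made; a gene was counted as higher or lower if log2(CPM + 1) differed by at least 1, that is 2-fold, among genes with 50 or more UMIs in all. A count of 0 allows 3 counts, at most 0.478%, 1.46%, 0.628% and 1.12% of the Cd8 T cells in the same order.

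Shares of cells with a UMI were taken after thinning each cell to 1000 UMIs, which left out 1 Cd8 T cell, in Vehicle. Scrublet, run in scanpy 1.11.5 with 0.4% expected doublets per 1000 barcodes, marked 5.46%, 1.77%, 3.32% and 0.669% of cells against 11.3%, 7.66%, 8.56% and 4.12% expected, among them 9, 8, 4 and 1 Cd8 T cells, which were kept and left out as an alternative. Transcript lengths came from GENCODE M21 and matched 8892 of the 8902 genes. Of 219 genes in 19 lists 215 were found; Trdc, Tcrg-C1, Tcrg-C2 and Tcrg-C4 were not analysed here. Some listed genes, among them 1 of the 4 scored circulation genes, are counted with their lists and not reported singly here. Genes named were those of the lists with at least 50 UMIs, the 10 in each direction with the largest difference in both OVA pairs and the 5 in both ribavirin pairs, not ribosomal or mitochondrial and at least as high in Cd8 T cells as over all cells. Genes below 50 UMIs (Il4, Il5, Il13) and the levels by Cd8b1 and without the cells that hold most of a gene were added after values were seen. The members and lists were chosen with earlier results of these data known. Alternatives changed the cell filters, the Cd8 rule, doublets, other-lineage and shared barcodes, thinning, the pseudocount, the gene filter and the scaling. Python 3.11.15, numpy 2.4.6, scipy 1.17.1, pandas 2.3.3 and matplotlib 3.10.9 were used, and the ratio and interval steps were tested on simulated data.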

Additional observations from a re-analysis of the deposited data

Results flagged for a closer look

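The results here were singled out because the OVA ratio was above 1 under one treatment and below 1 under the other, with counting intervals that both left out 1; with 1 library per group the difference between the treatments was not tested, and no explanation was weighed. The share of Cd8 T cells among all cells had OVA ratios of 0.48 under vehicle and 1.29 under ribavirin.

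Among the genes of the Cd8 T cells themselves, Klf2, a transcription factor of circulating cells, had ratios of 1.29 and 0.86, but relative to the median gene its log2 ratio was -0.06 under vehicle. Gzmb had ratios of 1.79 and 0.751; without the cell that held the most Gzmb in each library the second was 0.871, with an interval of 0.742 to 1.02. Srgn, the proteoglycan that packs granzymes, had 1.07 and 0.759; the first was 0.956 without the mixed cells, and -0.33 on the log2 scale relative to the median gene. The immediate early genes Fos, at 1.26 and 0.85, Jun, at 1.43 and 0.828, and Ier2, at 1.42 and 0.89, were on opposite sides of 1, although Fos was at -0.09 on the log2 scale relative to the median gene under vehicle. So was Nfkbia, the inhibitor of NF-kB, at 2.08 and 0.755. Aldoa, a glycolytic enzyme, had 1.34, the ratio of the median gene, and 0.82.

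Genes of other leukocytes found in the Cd8 T cells were among them too. The neutrophil genes S100a8 and S100a9 had ratios of 2.84 and 2.2 under vehicle and 0.358 and 0.36 under ribavirin. Both also marked the mixed cells, and their ratios rest in part on few cells. The 3 cells with the most S100a8 held 308 of its 696 UMIs in Vehicle and 335 of 789 in Vehicle-OVA. In Ribavirin they held 456 of 847 and in Ribavirin-OVA 16 of 174. Cxcl2, a neutrophil-drawing chemokine, had 12.2 and 0.71, and Il1b 2.41 and 0.805. C1qa, of macrophages, had 0.501 and 1.58, but the definition held the C1q chains to under 2 UMIs per cell, so these ratios are a description. Fcgr3, the low-affinity IgG receptor that macrophages and neutrophils also carry, had 2.45 and 0.32, or 1.51 and 0.672 without the mixed cells. All of these but C1qa were, like the genes above, above 1 under vehicle and below 1 under ribavirin. The part of other leukocytes in the values above was not tested.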

How the results depend on the processing

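No paired analysis was possible because each group is 1 library and the labels give no replicate numbers. The OVA ratio of the residency-only share reversed without thinning, to log2 ratios of -0.16 under vehicle (0.34 as reported) and -0.22 under ribavirin (0.33). The share of Cd8 T cells had an OVA log2 ratio of -1.49 under vehicle (-1.06) with under 5% mitochondrial UMIs; under ribavirin (0.37) it was -0.0122 there and -0.0553 when each Cd8 chain had a UMI. Among Cd4 and Cd8 T cells the ribavirin value (0.17) became -0.0657 and -0.15 in the same settings; the cause was not tested.

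Counts of genes past 2-fold follow the filter and the scale. Where at least 200 UMIs were required, they were 832 higher and 239 lower for OVA under vehicle, 656 and 254 under ribavirin, 36 and 4 for ribavirin without OVA and 48 and 79 with it; the smaller set of genes is part of this. With no gene filter, 950 were lower for OVA under vehicle, 1861 higher and 1002 lower under ribavirin, 471 and 317 for ribavirin without OVA and 936 and 838 with it. With 5 CPM added, 724 were higher for OVA under ribavirin, 43 and 11 for ribavirin without OVA and 89 and 183 with it. CPM without ribosomal and mitochondrial genes gave 889 and 592 for OVA under vehicle and 652 higher under ribavirin, and centring on the median 472 and 967, and 248 and 947. Cells with 1 Cd8 UMI counted in gave 30 lower for ribavirin without OVA, and cells without many UMIs of another type 183 lower with OVA. Of the named genes past 2-fold, Il22 alone lost its direction, for ribavirin over vehicle with OVA: to -1.2 when 1 Cd8 UMI sufficed, and to 0 without the 3 cells per library with the most of the gene. Over the 3240 values of 54 named genes under alternatives, 2970 moved by less than their counting interval, 268 by more and 2 reversed; Ccl5, Lag3, Tox, Il2ra and Xcl1 kept their direction in both OVA pairs. With 205 Cd8 T cells in Vehicle-OVA and 1 library per group, genes of a few cells, such as Il10, Il22 and Xcl1, are limited most.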
